A study of Mus musculus with 18 samples.

Results

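RAD21, the kleisin subunit of the cohesin ring, was mapped by ChIP-seq in 4 libraries of a mouse pro-B cell line, and the 2 libraries numbered replicate 2 were set against the 2 numbered replicate 1. Each number held 1 control and 1 block library, and these 4 libraries were taken by their labels out of 18 samples in the series, of which 14 had a peak list and 4 were inputs that were not used here. All cells were pro-B cells transformed by the v-Abl kinase. Every group carried the JH-del allele, an Emu-Bcl2 transgene, RAG2 deficiency and dCas9, a form of Cas9 that has lost its nuclease activity, and all were kept in 3 uM STI-571, an Abl kinase inhibitor, for 4 days. The block cells also expressed a guide RNA named Sg1-sgRNA, the only difference from the control cells that the labels give. The other lists used here came from the same line: RAD21 in 3 libraries without and 3 with the Ig2b deletion on both alleles (Ig2b-del/del), and NIPBL, the cohesin loader, in 2 control and 2 block libraries. Nothing in the labels says whether a replicate was a separate culture or clone, so each p-value measures only the spread between these libraries. The labels do not say where that guide binds. The one Igh constant-region segment in which both block lists exceeded both control lists was Cγ1, covered at 10.6% in block replicate 1 and 9.71% in block replicate 2, against 1.20% and 4.57% in control replicates 1 and 2, so both numbers carried the same block-over-control order there.

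Cohesin extrudes chromatin loops and is retained where CTCF is bound in the convergent orientation, so most strong cohesin peaks in mammalian cells sit on CTCF motifs. NIPBL, together with MAU2, loads cohesin and stimulates its motor activity, and in ChIP-seq it marks active promoters and enhancers more than CTCF sites. Cohesin without CTCF is also found at active promoters, at enhancers, along transcribed genes and at their 3' ends. At Igh, the locus of the antibody heavy chain, loop extrusion past the recombination centre at Eμ and JH brings distant segments to the RAG enzyme, and CTCF-bound elements at IGCR1 and downstream of the constant genes form its main anchors.

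A list here is the set of peaks the authors called in 1 library, and covered bp is the length of the union of those peaks on the autosomes and X. A base was called replicate 2 only when both replicate 2 lists and neither replicate 1 list covered it. Stretches of 151 bases show the kinds of sequence involved, read from mm9 (NCBIM37). The first lies at the CTCF core with the highest peak fold in Igh among regions present in all 4 lists, in the distal VH segments at chr12:116987910-116988060, printed from the minus strand with the core match in capitals. The second is the middle of the longest replicate 2 only stretch in Cμ-Sμ at chr12:114662108-114662258, upstream of the annotated Ighm exons, printed from the minus strand on which Igh is transcribed, with the switch-region pentamer GAGCT in capitals. The third is the middle of the longest such stretch in the Cγ2b segment at chr12:114553093-114553243, upstream of the annotated Ighg gene, also from the minus strand. The fourth lies upstream of Syvn1, centred 239 bp before its annotated start, at chr19:6046262-6046412 on the plus strand, with CG dinucleotides in capitals.
CTCF core, distal VH: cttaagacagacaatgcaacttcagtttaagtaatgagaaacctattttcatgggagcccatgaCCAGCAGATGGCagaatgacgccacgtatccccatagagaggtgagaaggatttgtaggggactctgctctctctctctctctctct
Cμ-Sμ: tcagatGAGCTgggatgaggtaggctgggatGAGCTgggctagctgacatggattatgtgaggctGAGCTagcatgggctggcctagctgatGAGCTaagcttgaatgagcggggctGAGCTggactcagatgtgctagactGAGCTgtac
Cγ2b: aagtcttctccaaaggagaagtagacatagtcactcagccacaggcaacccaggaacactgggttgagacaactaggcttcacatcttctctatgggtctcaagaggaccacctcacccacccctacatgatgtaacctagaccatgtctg
Syvn1: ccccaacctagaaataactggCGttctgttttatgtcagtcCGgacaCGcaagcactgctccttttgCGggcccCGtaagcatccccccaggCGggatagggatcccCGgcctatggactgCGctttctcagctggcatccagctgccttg
The first stretch was covered in full by all 4 lists. The other three were covered in full by both replicate 2 lists and at no base by either replicate 1 list. The pentamers GAGCT and GGGGT were searched together, on the printed strand of the stretch and on both strands of the tiles compared with it. The Cμ-Sμ stretch held 6 matches, all of them GAGCT, and 0.0213% of the 151-base tiles of chromosome 12 held as many on either strand. The CTCF core, a 12-letter consensus with ambiguous letters, had no match in the Cγ2b stretch, and 0.0670% of those tiles held 1. The Syvn1 stretch held 8 CG dinucleotides, as many or more of which stood in 1.28% of the tiles of chromosome 19.

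The replicate 2 lists covered more of the genome. Peaks covered 15.9 Mb in control replicate 1 and 23.7 Mb in block replicate 1, against 34.4 Mb in control replicate 2 and 31.5 Mb in block replicate 2. The replicate numbers did not overlap, with means of 19.8 ± 5.52 Mb and 33.0 ± 2.03 Mb (SD, n = 2 each). An exact two-sided permutation test of 2 against 2 cannot give a p below 0.33, which was the value here. The gain was 2.17-fold within control cells and 1.33-fold within block cells. The lists did not end at the same q-value of the authors. The lowest −log10 q was 1.42 in control replicate 1, 1.01 in block replicate 1, 1.56 in control replicate 2 and 1.41 in block replicate 2. With −log10 q of at least 3, the lists covered 11.5, 14.2, 25.8 and 22.1 Mb in the same order. The number of peaks rose from 58837 to 82566 in control cells, a ratio of 1.4, and went from 82688 to 79842 in block cells, a ratio of 0.966, so the replicate numbers overlapped in it. Peaks were wider in both kinds of cells: the median width was 225 and 222 bp in replicate 1, and 305 and 287 bp in replicate 2. Peaks of 2 kb or more numbered 127 and 204 against 817 and 661. The number of reads behind each list is unknown, so breadth of calling and occupancy cannot be told apart from these lists. Names of single peaks followed one style in both replicate 1 lists and another in both replicate 2 lists, and that split coincides with the replicate number. The sample number within those names was the same in both control lists and differed between the block lists, so whether the block replicates came from the same line is unknown, and this bears on every difference within block cells.

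**Figure D1:**
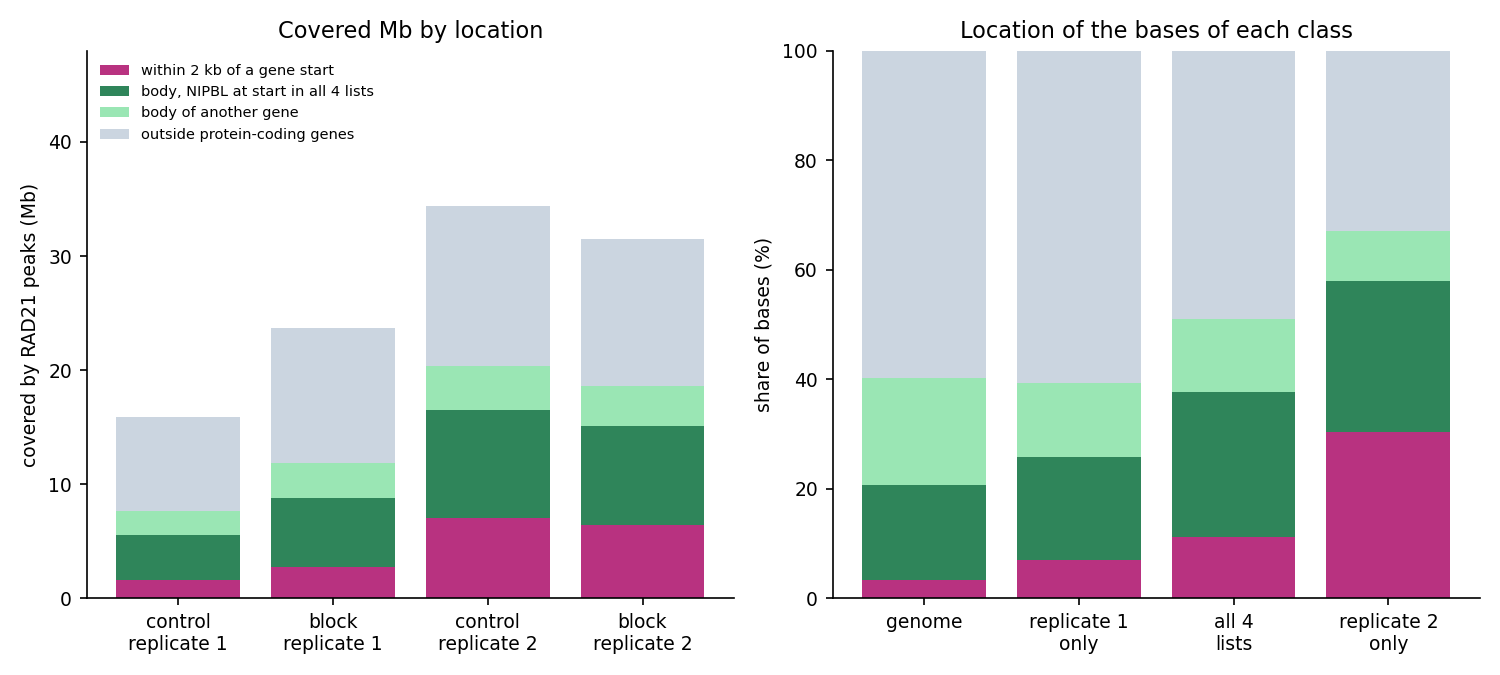
Left, Mb covered by RAD21 peaks in each library, stacked by location. Right, share of bases at each location for the genome, for bases in replicate 1 only, in all 4 lists and in replicate 2 only. The share within 2 kb of a gene start was 30.4% in replicate 2 only bases and 7.04% in replicate 1 only bases.

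Gene starts were the location with the largest relative gain among the 4 into which the genome was divided. Bases within 2 kb of a protein-coding start made up 10.3% and 11.5% of the covered bp in the replicate 1 lists, and 20.6% and 20.4% in the replicate 2 lists. In Mb, starts went from 2.18 ± 0.769 to 6.74 ± 0.459 (SD, n = 2), a ratio of 3.09. Bodies of genes with NIPBL at the start in all 4 NIPBL lists gained by a ratio of 1.82, bodies of other genes by 1.44, and sequence outside protein-coding genes by 1.34. That order of the 4 ratios held within control cells (4.32, 2.41, 1.88 and 1.70) and within block cells (2.36, 1.43, 1.15 and 1.09). With the lists trimmed to the same covered bp by their highest −log10 q, the start share was 10.3% and 10.2% in replicate 1 and 13.8% in both replicate 2 lists, so the strongest peaks differed in the same direction by less.

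The bases found only in replicate 2 summed to 9.68 Mb, and those only in replicate 1 to 1.20 Mb. Of the replicate 2 only bases, 30.4% lay within 2 kb of a gene start, 27.4% in bodies of genes with NIPBL at the start in all 4 lists, 9.22% in bodies of other genes and 32.9% outside protein-coding genes. These locations make up 3.26%, 17.4%, 19.6% and 59.7% of the genome. The 10.5 Mb shared by all 4 lists had 11.1% at starts, 26.6% and 13.2% in the bodies of the 2 kinds of genes, and 49.1% outside. Replicate 1 only bases had 7.04% at starts, 18.8% and 13.5% in bodies and 60.6% outside. So gene bodies as a whole were 36.7% of the replicate 2 only bases, close to their 37.0% of the genome, while bodies of genes with NIPBL at the start were above their genome share. Base composition moved with location: GC content was 50.2% in replicate 2 only bases, 47.0% in bases of all 4 lists, 44.6% in replicate 1 only bases and 41.8% genome-wide. CG dinucleotides numbered 2.78, 1.52, 0.875 and 0.834 per 100 bp in the same order. The part of GC content in the result was not tested.

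The extra bases lay both in new regions and at the edges of shared ones. Merged over all 4 lists, peaks formed 127802 regions. Regions in which only replicate 2 had peaks held 41.0% of the replicate 2 only bases, and regions with peaks in all 4 lists held 40.1%, where replicate 2 peaks reached further out. There were 16349 regions with peaks in both replicate 2 lists and neither replicate 1 list, and 4495 of the opposite kind. The former had a median width of 365 bp, 29.7% of them touched the 2 kb around a gene start, and 30.1% held bases in all 4 NIPBL lists. Among the 4495 regions of replicate 1 only, the median width was 219 bp and these shares were 7.32% and 0.912%. The 38319 regions of all 4 lists had shares of 11.9% and 13.3%.

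NIPBL marked a large part of the extra bases. Bases inside peaks of all 4 NIPBL lists are 0.349% of the genome. They made up 19.8% of the replicate 2 only bases, 7.57% of the bases in all 4 RAD21 lists and 1.34% of the replicate 1 only bases. Within gene starts, the NIPBL share of replicate 2 only bases was 48.4%, against 8.11% in the bodies of genes with NIPBL at the start, 8.82% in other bodies and 6.02% outside genes. By library, 5.68% and 5.62% of covered bp lay in such bases in replicate 1, and 11.7% and 11.6% in replicate 2. The Ig2b RAD21 lists had 9.05%, 12.03% and 8.21% in wild-type and 11.9%, 11.7% and 11.6% in deleted cells, in replicate order. Each of these shares was above both replicate 1 lists, so a higher NIPBL share was not confined to replicate 2. The reason for the low share in replicate 1 was not tested. NIPBL libraries are control and block libraries of the same line, and their peaks were called against a control library, as were those of the 4 RAD21 lists.

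Around the starts of genes with NIPBL in all 4 lists, RAD21 formed a sharp maximum in replicate 2 that was low in replicate 1. Over 8352 such genes with a body of at least 5 kb, the 250 bp just upstream of the start were covered at 6.39% of bases in control replicate 1, 10.4% in block replicate 1, 47.8% in control replicate 2 and 42.2% in block replicate 2. Just downstream of the start the values were 3.42%, 7.46%, 41.0% and 36.2%. In the bin centred 5125 bp into these genes they had fallen to 1.12%, 1.87%, 2.59% and 2.36%. At 3166 genes with NIPBL at the start in no list, the upstream bin was covered at 0.844%, 1.10%, 1.77% and 1.54%. Past the gene ends, in the bin centred 3125 bp downstream, genes with NIPBL had 1.77%, 2.68%, 4.86% and 4.44%, and genes without it between 1.07% and 1.78%. In the 6 Ig2b libraries, whose peak names mention no control library, the upstream bin of NIPBL genes was covered at 7.69% to 31.1%. All these values were below both replicate 2 lists and above control replicate 1, and only the lowest was below block replicate 1.

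**Figure D2:**
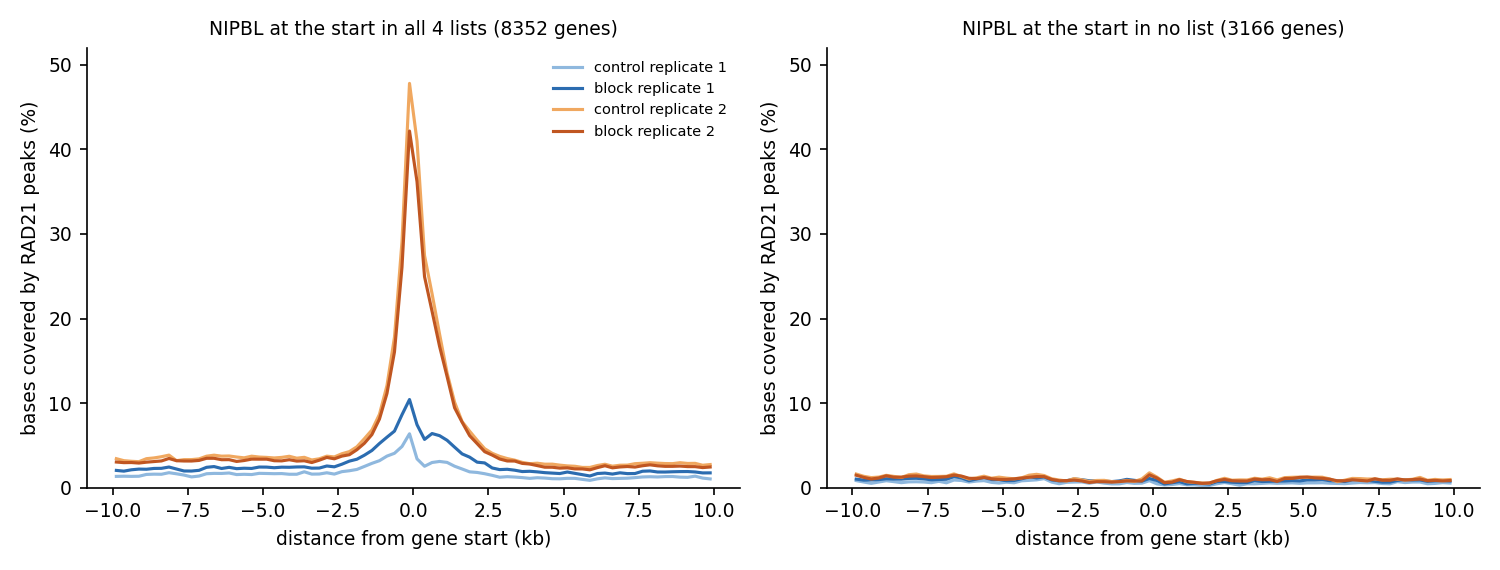
Share of bases covered by RAD21 peaks in bins of 250 bp by distance from the gene start, for genes with NIPBL at the start in all 4 NIPBL lists (left) and in none (right), 1 line per library. Both replicate 2 lines exceed 40% just upstream of NIPBL starts, and all 4 lines stay below 2% at starts without NIPBL.

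Counted by gene, 84.4% and 81.8% of the 10540 genes with NIPBL at the start in all 4 lists had a RAD21 peak within 2 kb in the replicate 2 lists, against 38.7% and 53.9% in the replicate 1 lists. Of the 6312 genes with NIPBL at the start in no list, 6.64% and 6.56% had one in replicate 2, and 5.54% and 7.62% in replicate 1, so there the replicate numbers overlapped. Starts averaging 200 covered bp or more over the 4 lists were tested with limma on log2(covered bp + 200). Of 7531 starts tested, 4011 rose in replicate 2 (53.3%) and 18 fell (0.239%) at a Benjamini-Hochberg adjusted p under 0.05, and the median difference was 1.32 on the log2 scale. A start with little or nothing in replicate 1 entered the test only through its replicate 2 peaks. Fitted differences of starts without a replicate 1 peak depend on the added 200 bp. Quantile normalization, which gives all lists the same distribution, moved the median to 0.06 and the counts to 1029 higher and 1226 lower, and with lists trimmed to equal covered bp the counts were 147 and 67. Without control replicate 2 the unscaled fit called 916 starts higher, and without block replicate 2 it called 1323. The differences below are on the unscaled lists unless stated. Among tested starts with NIPBL in all 4 lists, 57.8% were called higher, against 23.5% with NIPBL in 1 to 3 lists and 13.5% with NIPBL in none.

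The 9 starts with the largest differences were those of Cxxc5, Syvn1, Lbr, Fgfr1op, Tubb3, Junb, Dyrk1a, Ebf1 and Susd1, all with NIPBL at the start in all 4 NIPBL lists. At Cxxc5, a CXXC zinc finger gene, peaks covered 0 bp of the 4 kb in control replicate 1, 8 bp in block replicate 1, 3284 bp in control replicate 2 and 2590 bp in block replicate 2. For Syvn1, which encodes the ubiquitin ligase HRD1 of the endoplasmic reticulum, both replicate 1 lists had 0 bp, control replicate 2 had 2780 bp and block replicate 2 had 2441 bp (log2 difference 3.81 ± 0.182 SE). This is the start from which the sequence above was printed, and its longest replicate 2 only stretch ran for 1764 bp. Lbr, the lamin B receptor gene, had 0 and 0 bp against 2720 and 2439 bp. Junb, an AP-1 transcription factor gene, had 0 and 0 bp against 2640 and 2299 bp. The start of Ebf1, a transcription factor that specifies the B lineage, had 0 and 0 bp against 1971 and 2884 bp. The 2 replicate numbers did not overlap at any of these 9 starts, which the naming rule required. Replicate 1 means at the 9 were at most 42.5 bp (Susd1), under the filter of 200 bp, so all entered only through replicate 2. After quantile normalization of the same starts their differences ran from 2.39 to 2.65, which is no separate support. Of the 9 only Junb was still tested with lists of equal covered bp (1.96, adjusted p = 0.11 by limma).

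Genes of the early B lineage had the extra RAD21 at nearly all their starts. All 20 genes of the list had a start peak in both replicate 2 lists, and 13 and 15 had one in the replicate 1 lists. All 20 were tested, 18 rose and 0 fell, where 53.3% of all 7531 starts did, and the median difference was 2.42, against 1.32 over all starts. After quantile normalization 14 of the 20 were called higher and 0 lower, and at equal covered bp 1 of the 4 still tested was called. Blnk, which encodes an adaptor of pre-B receptor signalling, had 124 and 0 bp against 2253 and 2627 bp. Ikzf3, which encodes Aiolos, had 74 and 129 bp against 2703 and 2282 bp. In both genes the replicate 2 values lay far above both replicate 1 values. Bach2 and Ikzf1, both transcription factor genes, were the 2 members that did not pass the test.

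**Figure D3:**
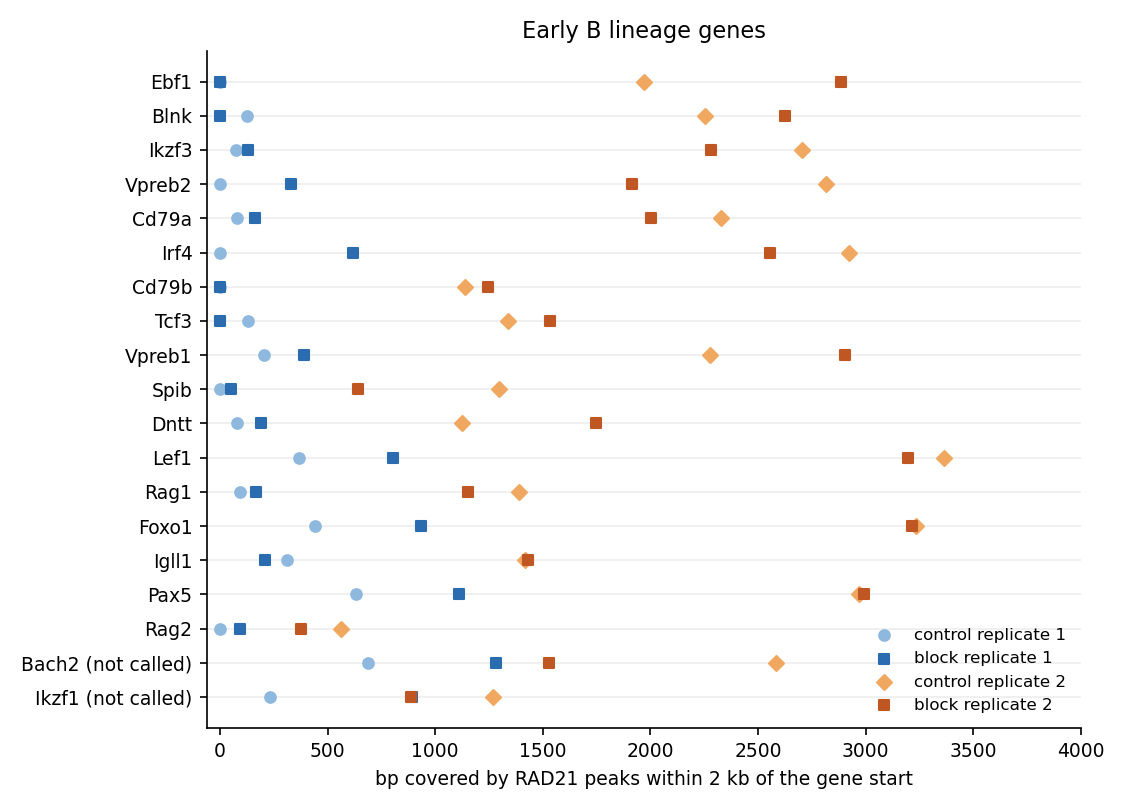
Bp covered by RAD21 peaks within 2 kb of the start of 19 of the early B lineage genes, 1 symbol per library, ordered by the log2 difference. At 17 of them both replicate 2 symbols lie to the right of both replicate 1 symbols with a call, and where both replicate 1 lists have 0 bp, as at Ebf1 and Cd79b, their symbols coincide.

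Genes that respond to withdrawal of v-Abl signals, among them STAT5 and FOXO targets and regulators of G1, had start peaks in most lists. Of 15 genes, 12 and 13 had a start peak in replicate 1 and 14 in each replicate 2 list. Of 14 tested, 9 rose and 0 fell, against 53.3% of all starts, with a median of 1.47. After quantile normalization 4 were called, and at equal covered bp 1 of 10 was. Pim1, a kinase gene induced by STAT5, had 36 and 207 bp in replicate 1 and 3477 and 3515 bp in replicate 2 (log2 difference 3.58 ± 0.332 SE). Its replicate 1 mean of 121.5 bp was below the filter of 200 bp, so it entered only through replicate 2 and no p is given. With lists of equal covered bp the Pim1 difference was 3.37. Cdkn1b, which encodes the cell cycle inhibitor p27, had 0 and 0 bp against 1647 and 1298 bp. Foxo3 and Mcl1, a FOXO factor and a survival gene, rose by 2.52 and 2.35, and Foxo3 was not called after quantile normalization. Cdkn1b, Foxo3 and Mcl1 had replicate 1 means of 0, 181 and 180.5 bp, so they also entered only through replicate 2.

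Housekeeping genes, ribosomal protein genes and genes of RNA processing and Mediator showed the same direction on unscaled lists, where 53.3% of all starts were called higher. In the housekeeping list, start peaks were found at 2 and 4 of 10 genes in replicate 1 and at 10 and 9 in replicate 2. Of 8 tested, 5 rose, among them Tbp, B2m, Ppia and Sdha, with a median of 2.22. Tbp, the TATA-binding protein gene, had 0 and 0 bp in replicate 1, 1814 bp in control replicate 2 and 1109 bp in block replicate 2. Of 20 ribosomal protein genes, 7 and 10 had a start peak in replicate 1 and 20 and 17 in replicate 2, and 8 of 12 tested rose, with a median of 1.42. Rpl19 went from 0 and 0 bp to 888 and 904 bp. After quantile normalization that list's median was 0.06, the same to 2 decimals as over all starts, with 2 called higher. Of 8 tested genes of RNA processing and Mediator, 7 rose, with a median of 2.08, and after quantile normalization 2 did. They include Polr2a, the gene of the largest RNA polymerase II subunit, with 126 and 201 bp against 1375 and 1627 bp, and Sf3b1, a splicing factor gene, with 0 and 248 bp against 1615 and 1565 bp. In each of these 3 lists 0 members fell.

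At the genes of cohesin itself the share called was about that of all starts. Of 14 genes of cohesin, its loader and CTCF, 5 and 8 had a start peak in replicate 1 and 12 in each replicate 2 list. Of 10 tested, 5 rose and 0 fell on unscaled lists (Nipbl, Ctcf, Cdca5, Mau2 and Wapal), against 53.3% of all starts, with a median of 1.57, while after quantile normalization 0 were called higher and 1 lower. The Nipbl start had 0 and 457 bp against 1911 and 1897 bp. The Ctcf start had 469 and 213 bp against 2177 and 2429 bp, and its difference of 2.25 turned to -0.067 with lists of equal covered bp. Mau2, the partner of NIPBL, had 0 and 0 bp against 682 and 471 bp. The Rad21 start itself had 0 and 0 bp against 256 and 119 bp and was below the filter.

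Markers of other blood cells had little RAD21 at their starts in either replicate number. Of 9 T cell markers, 1 and 1 had a start peak in replicate 1 and 2 and 2 in replicate 2, and Cd3d, Cd3e, Cd3g, Cd4, Cd8a, Bcl11b and Tcf7 were at 0 bp in all 4 lists. Lck, a kinase gene of T cells that some B-lineage cells express, had 0 and 0 bp against 440 and 488 bp and rose on unscaled lists, with no call after quantile normalization. Of 8 myeloid markers, 1 and 2 had a start peak in replicate 1 and 1 and 1 in replicate 2. Csf1r, Itgam, Mpo, Lyz2, Cebpa and Cd14 were at 0 bp in all 4 lists. Among 8 erythroid markers the counts were 2 and 3 against 2 and 2, and on unscaled lists none of the 3 marker lists had a start called lower. After quantile normalization 1 of 2 T cell, 1 of 1 myeloid and 1 of 2 erythroid marker starts tested were called lower, the myeloid one being Fcgr3, an Fc receptor gene also expressed outside myeloid cells, with a difference of -2.35. Mean covered bp per start was 37.7, 37.4, 83.2 and 88.0 for T cell markers and 48.9, 149.5, 19.6 and 12 for myeloid markers, in control replicate 1, block replicate 1, control replicate 2 and block replicate 2. For the early B lineage these means were 172.8, 367.7, 2050 and 1968 bp.

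Gene bodies, from 2 kb past the start to the gene's end, gained in fewer genes. Bodies averaging 500 covered bp per 10 kb or more were tested, so that a body with little or nothing in replicate 1 entered only through replicate 2, and the test ran on log2(bp per 10 kb + 500). Of 1175 bodies tested, 551 rose (46.9%) and 28 fell (2.38%), with a median difference of 0.47. After quantile normalization 168 were higher and 138 lower, and with lists trimmed to equal covered bp 39 and 12. Without control replicate 2 the count of higher bodies was 181, and without block replicate 2 it was 235. Among bodies of genes with NIPBL at the start in all 4 lists 51.3% rose, and among those with NIPBL in no list 31.9%. The 10 largest gains were at Cd69, Il7r, Hhex, Pipox, Snn, Serpinf1, B3gnt2, Tgif1, Ttpal and Rhoh. After quantile normalization of the same bodies their differences ran from 1.48 (Rhoh) to 3.38 (Cd69). Cd69 and Il7r had NIPBL at the start in 1 NIPBL list each, Serpinf1 in none, and the others in all 4. Cd69, a lectin gene of activated lymphocytes, had 0 and 319.2 bp per 10 kb of body in replicate 1, then 7413 in control replicate 2 and 7233 in block replicate 2, a fitted log2 difference of 3.61 ± 0.228 (SE). Among the 10 bodies only Tgif1 had a replicate 1 mean above the filter, at 776.4 bp per 10 kb. The others passed it only through their replicate 2 values, so no p is given for them. Il7r, which encodes the interleukin-7 receptor chain that drives pro-B cell growth, had 0 and 0 bp per 10 kb against 2895 and 2440. Hhex, a homeobox gene of lymphoid progenitors, had 0 and 730.9 against 3970 and 3239. Rhoh, which encodes a small GTPase of blood cells, had 58.8 and 339.5 against 3162 and 1957. In all 4 genes the body was nearly free of peaks in control replicate 1. In replicate 2 their covered bp per 10 kb ran from 1957 (Rhoh, block) to 7413 (Cd69, control). Of 5 early B lineage bodies tested 4 rose, those of Irf4, Foxo1, Tcf3 and Pax5, and after quantile normalization 2 did, Irf4 and Foxo1. All 5 had replicate 1 means below the filter, so they too entered only through replicate 2. Bodies of markers of other cells rose by similar amounts: Tcf7, of the T cell list, by 0.67 and Itgam, of the myeloid list, by 0.76. Each was the only body of its list tested, with no call after quantile normalization. Tcf7 and Itgam also passed the filter only through their replicate 2 values, so no p is given for them. The median over the 5 early B lineage bodies was 0.77.

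CTCF sites, in contrast, were already covered in replicate 1. A 12-letter CTCF core occurred 12717 times in the genome, and a peak covered 52.6% of these cores in control replicate 1, 57.6% in block replicate 1, 55.1% in control replicate 2 and 54.6% in block replicate 2. The replicate 2 values lay between the replicate 1 values. Around 6423 cores in regions of all 4 lists, peaks covered on average 421.0, 540.6, 666.9 and 611.4 bp of the 4 kb, so replicate 2 peaks reached further from the same cores. Of the regions found in replicate 2 only, 137 (0.838%) held a core. Of those in replicate 1 only 189 did (4.2%), and of the regions in all 4 lists 6316 did (16.5%). Shared regions widened more where NIPBL was present. In 4563 regions of all 4 lists with NIPBL bases and no core, summed covered bp in replicate 2 was 2.27 times that of replicate 1 in control cells and 1.59 times in block cells. In 5800 regions with a core and no NIPBL base these ratios were 1.46 and 1.09.

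**Figure D4:**
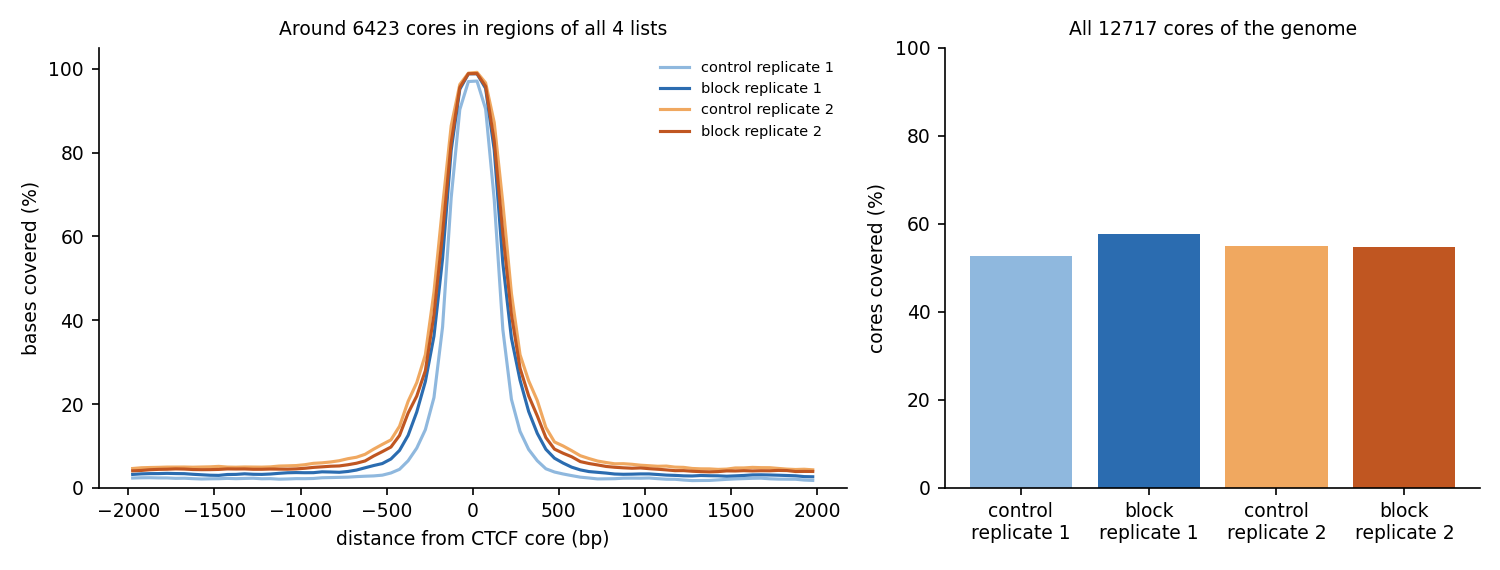
Left, share of bases covered by RAD21 peaks in bins of 50 bp around CTCF cores in regions of all 4 lists, 1 line per library. Right, share of all 12717 cores covered by a peak in each library, from 52.6% in control replicate 1 to 57.6% in block replicate 1.

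In windows of 10 kb, 16780 were tested, 5855 rose (34.9%) and 341 fell (2.03%), with a median difference of 0.48. After quantile normalization 2968 were higher and 2361 lower, and with lists trimmed to equal covered bp 746 and 300. Without either replicate 2 library 0 windows passed the adjusted threshold in limma (3252 higher at an unadjusted p under 0.05 without control replicate 2, 4007 without block replicate 2). Windows with both NIPBL bases and a gene start rose most often, at 56.8% of 4178. Windows with NIPBL and no start followed at 46.8% of 2706, and windows with a start and no NIPBL stood at 19.9% of 1233, below the 22.7% of 8663 windows with neither. The 5 largest gains lay in Ptch1 (chr13:63660001-63670000), at the start of Ebf1 (chr11:44430001-44440000), 15.5 kb from Ly6e outside any annotated gene (chr15:74760001-74770000), at Junb (chr8:87500001-87510000) and over the Jκ segments and Igkc of the Igk light-chain locus (chr6:70670001-70680000). In the Ptch1 window, which holds part of the Hedgehog receptor gene, peaks covered 0 and 63 bp in replicate 1 and 5385 and 4237 bp in replicate 2. The Igk window had 0 and 0 bp in replicate 1, 4177 bp in control replicate 2 and 2689 bp in block replicate 2. Windows were tested where the 4 lists averaged 500 covered bp or more. These 5 had 0 bp in control replicate 1 and at most 505 bp in block replicate 1, so they entered only through replicate 2. All 5 kept their call after quantile normalization, which used the same windows and is no separate support.

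On unscaled lists far fewer windows fell than rose. Of the 341 windows that fell, 63 lay on chromosome 4 between 145020001 and 147170000, where 78 windows were tested, 0 rose and the median difference was -1.47. Another 106 lay on chromosome X, where 399 were tested and 65 rose. Most of these 106 lay in the 10 Mb bins from 0, 30 and 120 Mb, where 38 of 71, 44 of 81 and 22 of 101 windows fell. In each other bin of chromosome X at most 1 window fell. These places were picked after their values were seen, and in the rest of the genome 172 of 16303 windows fell (1.06%). Of the 5 largest losses 4 were in the chromosome 4 span, such as chr4:146720001-146730000 with 4018 and 4847 bp in replicate 1 and 458 and 413 bp in replicate 2. The bodies that fell most were Ugt1a1, Hjurp, Ugt1a2, Heatr7b1, Vmn2r88, Rhbdd2, Vmn2r89, Ugt1a5, Zfp600 and Itln1. Ugt1a1, a bilirubin glucuronosyltransferase gene that shares its last exons with the other Ugt1a genes, had 7148 and 6337 bp per 10 kb in replicate 1 against 1556 and 1683 in replicate 2, and the Ugt1a bodies overlap, so they are not separate results. Zfp600, a zinc finger gene inside the chromosome 4 span, had 2100 and 2903 against 774 and 1324. Among starts that fell, Rab11fip4, which encodes a partner of the Rab11 GTPase, had 492 and 585 bp against 0 and 0, and the others named by the rule were Elovl7, Mup9, Vmn2r88, Ugt1a1, Dub3, Rpl14 and Tbx2. With genotype as a covariate Dub3, Rpl14 and Tbx2 lost their call, and Elovl7 lost it with any 1 of the 4 libraries left out. Mup9, the Vmn2r genes, Ugt1a genes, Dub3 and Zfp600 belong to families of near-identical copies, and how reads with several matches were placed is not given in the sources used here, so their values are uncertain.

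At Igh the replicate 2 gain was uneven and leaned on control replicate 2. The locus was divided into 15 segments with approximate ends set from annotated genes. In 8 segments both replicate 2 values lay above both replicate 1 values, in 0 they lay below, and in 7 they overlapped. Every exact permutation p was at least 0.33, the smallest 2 against 2 allows, and the smallest adjusted over the 15 segments was 0.625.

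The Cμ-Sμ segment (chr12:114657078-114663940), which holds the μ constant exons and the μ switch region, was free of peaks in both replicate 1 lists. Peaks covered 49.9% of it in control replicate 2 (3424 bp, 3 peaks) and 8.64% in block replicate 2 (593 bp, 3 peaks). The difference of means was 29.3 percentage points with an SD of 29.2 among the replicate 2 libraries, and it was 8.64 without control replicate 2. The 3 block peaks carried folds, as the authors' caller gave them, of 3.52 to 3.81. With −log10 q of at least 3 the difference of means was 11.4, and with lists trimmed to equal covered bp it was 0. In the Ig2b libraries the segment was covered at 2.04% to 58.9%, and in the NIPBL libraries at 15.5% to 29.9%.

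Cγ2b (chr12:114540600-114557143), which holds the γ2b constant exons and sequence upstream of them, had 0.864% and 1.37% covered in replicate 1. In control replicate 2 peaks covered 36.1% (5977 bp, 12 peaks), while block replicate 2 had 2.32% (384 bp, 2 peaks). Without control replicate 2 the difference of means dropped from 18.1 to 1.20 percentage points, so the gain over this segment rested on that library. It was 6.11 with −log10 q of at least 3 and 4.23 with lists trimmed to equal covered bp. One site was shared by all 4 lists: a peak of 143 bp in control replicate 1 and 227 bp in block replicate 1 lay inside a peak of 1543 bp in control replicate 2, and overlapped one of 305 bp in block replicate 2. The replicate 2 only stretch printed above adjoins it. In the Ig2b libraries Cγ2b was covered at 0% to 4.67%.

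Other Igh segments gained in both kinds of cells. The Eμ-JH segment, which holds the intronic enhancer and the region of the JH deletion, was covered at 8.11% and 10.5% in replicate 1, and at 47.8% in control replicate 2 and 28.6% in block replicate 2. IGCR1, the CTCF-bound control region between DH and VH, had 23.9% and 26.3% against 66.6% and 33.0%. The 3' CTCF elements had 24.1% and 24.7% against 49.2% and 37.6%. In the DH segments 0.116% and 0.379% stood against 2.12% and 1.89%. The Cα and Cγ3 segments held no peak in any of the 4 lists. The middle and distal VH segments went opposite ways: 5.82% to 8.88% in control cells and 7.01% to 2.64% in block cells, from replicate 1 to replicate 2.

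**Figure D5:**
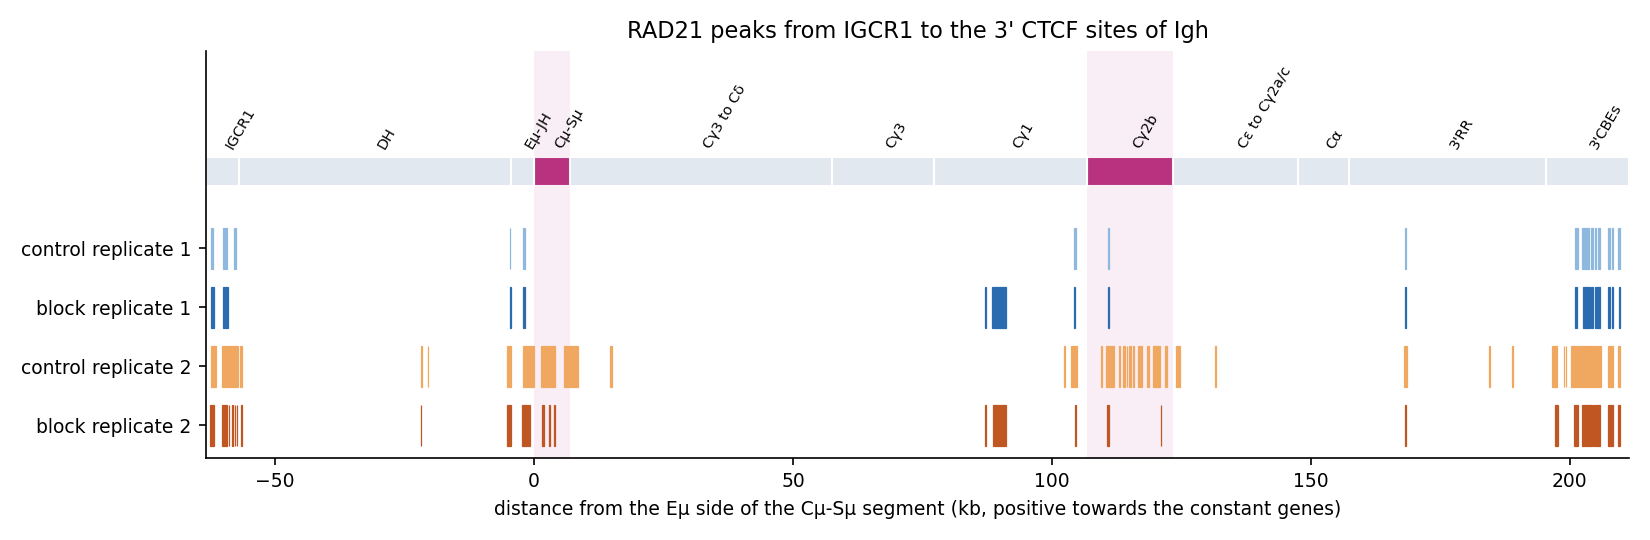
RAD21 peaks from IGCR1 to the 3' CTCF elements of Igh in each of the 4 libraries, by distance in kb from the Eμ side of the Cμ-Sμ segment, with the segments drawn above and Cμ-Sμ and Cγ2b shaded. Control replicate 2 has 12 peaks in Cγ2b and block replicate 2 has 2, and in Cμ-Sμ both have 3 while the replicate 1 libraries have none.

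Other RAD21 lists of the line covered parts of the extra bases. The 3 wild-type Ig2b lists covered 19.9%, 24.1% and 12.6% of the replicate 2 only bases, and the 3 deleted lists 34.6%, 51.6% and 17.3%. The same lists covered 66.4% to 87.8% of the bases shared by all 4 lists, and each of them covers under 1% of the genome. Of the replicate 1 only bases they covered 20.0%, 19.0% and 15.9% in wild-type and 16.7%, 24.0% and 8.61% in deleted cells. The start share of the Ig2b lists ran from 11.4% to 19.4% of covered bp, and the list that covered most, 25.1 Mb in deleted replicate 2, had the highest start share and covered most of the replicate 2 only bases. The NIPBL lists covered 24.3% to 34.0% of the replicate 2 only bases and 3.89% to 5.98% of the replicate 1 only bases.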

How the data were processed

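Peak lists of 14 ChIP-seq libraries were deposited, and 4 of them enter the comparison. Bowtie2 2.2.8, SAMtools 1.8, MACS2 and the mm9 build are named in the submitters' processing notes; the MACS2 version and settings are not given in the sources used here. Each deposited table is a broadPeak list of 9 columns, called per library. Its fold is a ratio over background made by the authors' caller, its p-values and q-values are −log10 values deposited by the authors, and the authors' score column was not used. Peak names mention a control for the 4 RAD21 lists compared and for NIPBL. Read depth is unknown, and no counts were given, so no interval or floor was computed.

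Covered bp was computed with numpy 2.4.6 on NCBIM37 with GENCODE vM1 (22350 protein-coding genes). Windows of 10 kb, gene starts (2 kb each side) and bodies of at least 5 kb were tested with limma 3.58.1 in R 4.3.3 on log2(bp + 500, or 200 at starts), two-sided, adjusted by Benjamini-Hochberg; the script was tested on simulated data. Igh segments were compared by exact permutation with scipy 1.17.1. Named genes were the 10 per direction with the largest difference among called genes whose replicate numbers did not overlap, leaving out Gm, Rik and AC symbols (8 starts fell by this rule), up to 4 called members of each list and 5 windows per direction. The comparison, its members and the gene lists were chosen with earlier results of these data known. Alternatives were the genotype as a covariate, −log10 q of at least 3, lists trimmed to equal covered bp, quantile normalization, all 10 RAD21 libraries in one fit, no filter, windows of 50 kb, 100 bp added, other segment ends and each library left out. Some genes that the rule names are not reported here.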

Additional observations from a re-analysis of the deposited data

Results flagged for a closer look

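In 3 Igh segments the replicate difference had opposite signs in control and block cells; the difference between the 2 kinds of cells was not tested, since each rests on 1 library per number. In the middle and distal VH segments, replicate 2 exceeded replicate 1 by 3.06 percentage points in control cells and differed by -4.38 in block cells, 7.43 apart. In the Cγ1 segment the differences were 3.37 and -0.91 points, 4.28 apart. In the proximal VH segments they were 0.733 and -1.28 points, 2.01 apart.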

How the results depend on the processing

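No paired analysis was possible because of what the numbers are here: pairing by replicate number would remove the factor compared. Pairing within genotype is the fit with genotype as a covariate (1 residual degree of freedom), which called 6216 windows higher and 401 lower, 4235 and 22 starts, and 487 and 26 bodies. Quantile normalization moved the windows called from 5855 higher and 341 lower to 2968 and 2361, starts from 4011 and 18 to 1029 and 1226, and bodies from 551 and 28 to 168 and 138. Lists trimmed to equal covered bp gave 746 higher windows, 147 higher and 67 lower starts, and 39 higher and 12 lower bodies. With −log10 q of at least 3, 127 windows were lower, 1909 starts and 304 bodies higher and 10 bodies lower. Without a filter 518 windows, 90 starts and 52 bodies were lower, and with 100 bp added 225 windows were lower. The fit of all 10 RAD21 libraries and windows of 50 kb kept each count they gave within 1.5 times. With 1 library left out, so that the lone library of its number is assumed to vary like the others, windows ran from 0 to 8982 higher and 0 to 373 lower, starts from 916 to 5151 and 4 to 24, and bodies from 181 to 772 and 18 to 30. Without control replicate 2 or block replicate 2, limma called 0 windows, with 3252 and 4007 higher and 307 and 369 lower at an unadjusted p under 0.05. The start share of replicate 2 only bases, 30.4%, was 23.5% at −log10 q of at least 3, 19.9% at equal covered bp, 37.7% within 5 kb, and 27.3% to 29.2% with 1 library left out. The body share, 36.7%, was 38.6%, 38.4% and 37.0% to 37.8%. The NIPBL share, 19.8%, was 16.3%, 13.3%, 15.7% to 18.7%, and 32.4% over merged NIPBL regions. The Cμ-Sμ difference of 29.3 points became 0 at equal covered bp and ran from 8.64 to 49.9 with 1 library left out, and that of Cγ2b, 18.1, ran from 1.20 to 35.0. At −log10 q of at least 3 they were 11.4 and 6.11, and Cγ2b was 4.23 at equal covered bp. Of 82 named genes and windows, calls were lost by 33 without control replicate 2, 33 without block replicate 2, 9 without control replicate 1, 6 without block replicate 1, 17 without the filter, 16 under quantile normalization, 14 at equal covered bp, 9 in the fit of all 10 libraries, 6 at −log10 q of at least 3 and 3 with the genotype covariate. Not all 82 were still tested in each setting, so the rest did not all keep their call. At equal covered bp only 7 kept it, and 32 kept it at −log10 q of at least 3. The starts of Ctcf (-0.067) and Rpl7 (-0.28) reversed at equal covered bp. The cause was not tested. Depth in reads is unknown, which limits every statement on amount.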
